A study of Homo sapiens with 8 samples.

Results

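Integrins and laminins are the receptors and the ligands with which epithelial cells hold on to a basement membrane. The genes described here are the 38 rows of the count tables, of 59050 gene symbols in all, whose symbol is that of an integrin alpha chain (18), an integrin beta chain (8) or a laminin alpha, beta or gamma chain (5, 4 and 3). They were chosen by symbol only. RNA sequencing was done on 8 tumours grown in mice from the established cell line H2122, which came from a human lung cancer. The comparison is between 4 tumours of parental cells, with the genotype given as WT, and 4 tumours of cells with a knockout of SMARCA4, the gene of an ATP-driven motor subunit of SWI/SNF, a family of complexes that move nucleosomes. All 8 tumours came from vehicle-treated animals. The mouse strain, the age of the animals, the vehicle, and whether the knockout cells were 1 clone or a pool were not given in the sources used here. The labels do not say that each tumour came from its own animal, so p-values measure the spread between these tumours.

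An integrin is a pair of 1 alpha and 1 beta chain that spans the membrane, binds matrix outside the cell and links to the actin or keratin skeleton inside it. The pair decides the ligand. ITGA3 with ITGB1 and ITGA6 with ITGB4 bind laminins, ITGA1, ITGA2, ITGA10 and ITGA11 with ITGB1 bind collagens, ITGA5 with ITGB1 binds fibronectin, and the ITGAV pairs bind ligands with an RGD motif, among them latent TGF-beta. Laminins are secreted trimers of 1 alpha, 1 beta and 1 gamma chain, numbered by their chains. Laminin-332, which holds LAMA3 and LAMB3, anchors epithelia through hemidesmosomes, where ITGA6 and ITGB4 bind it.

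Gene counts per library ran from 19785922 to 23191698 in the parental and 20662882 to 21981123 in the knockout group. SMARCA4 was at 198 to 235 CPM (counts scaled to a common, TMM-adjusted library size) in parental and at 22.3 to 31.1 CPM in knockout tumours, so every library lay on the side its label gives. Markers of the labelled cell type were abundant in part. The 6 epithelial markers summed to 5756 to 6929 CPM in parental and 4634 to 6237 CPM in knockout tumours, led by KRT8 and KRT7. Of them, KRT7 and KRT19 were called lower in knockout tumours (log2 fold changes -0.71 and -1.01, edgeR adjusted p = 3.33e-04 and 8.49e-05). The other 4 were not called, and KRT19 was named after its values were seen. Of 5 lung lineage markers, NKX2-1, SFTPC and SFTA3 had no count in any library, where a count of 0 allows up to 3 counts, and the list, led by NAPSA and SFTPB, summed to 0.893 to 1.24 CPM in parental and 1.03 to 1.51 CPM in knockout tumours. Parental replicates 2 and 3 stood apart in leukocyte markers, which summed to 111 and 89.8 CPM there, against 31.5 and 33.7 CPM in parental replicates 1 and 4 and 29.6 to 54.8 CPM in knockout tumours. Parental replicate 2 also had the highest summed level of 8 skeletal muscle markers (led by MB and ACTA1), 42.0 CPM against 2.73 to 17.8 CPM in the others. In whole tumours, fewer cells of a type and less RNA per cell cannot be told apart. The tumours grew in mice, and any removal of mouse reads is not given. Counts of blood, vessel, fibroblast and muscle genes, here and below, could therefore include mouse reads, as could those of the leukocyte integrins and LAMA4. This was not tested.

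More integrin and laminin genes were called higher than lower without SMARCA4. Of the 38 genes, 30 passed the filter on low counts, and edgeR's quasi-likelihood test called 14 of them higher and 1 lower in knockout tumours (adjusted p under 0.05 over all genes tested). Among all 16219 genes tested, 27.0% were called, 13.0% higher and 14.1% lower. The median log2 fold change of the 30 was 0.36, against 0.00 over all genes tested. The knockout and parental values did not overlap in 11 of the 30, with the knockout group above in 10 and below in 1, against 29.3% of all genes tested, and all 11 were among the 15 called. Integrin alpha chains gave 6 calls in 14 genes tested, all higher, and integrin beta chains 2 higher and 1 lower in 7. Without parental replicates 2 and 3, an analysis added after the data were seen, 17 were called higher and none lower. These 17 include ITGB2, ITGAL and ITGAM, which were highest in the 2 tumours left out. By the same edgeR test ITGB8 had a log2 fold change of -0.55 (adjusted p = 0.0556) without those 2 tumours. Leaving out 1 tumour changed the count most without parental replicate 1, where 7 were called higher; the count was 9 without parental replicate 3, and 8 both without knockout replicate 1 and without knockout replicate 3.

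**Figure D1:**
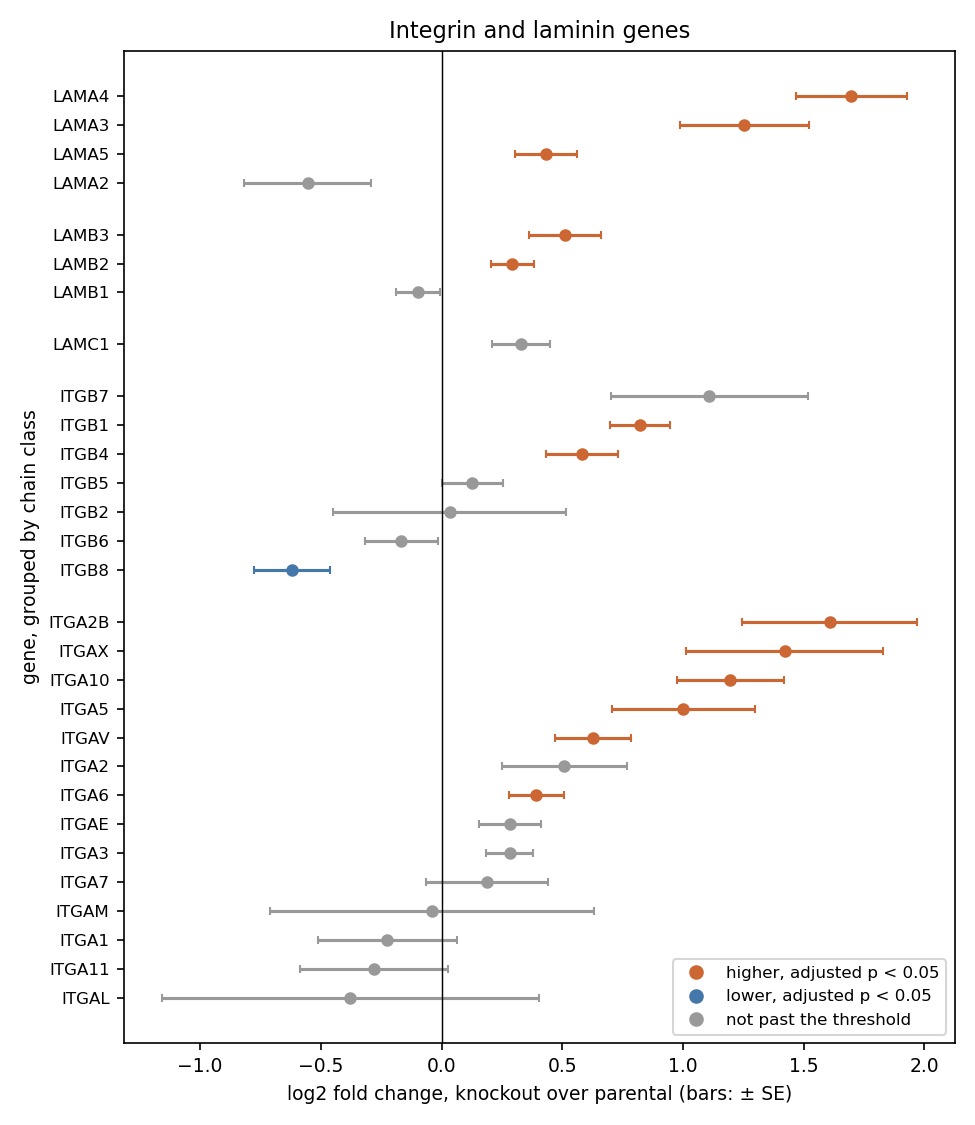
Log2 fold change of the tested genes reported here, knockout over parental, with bars of 1 standard error, grouped by chain class. The genes called higher lie to the right of 0, from LAMB2 at 0.29 to LAMA4 at 1.70, and ITGB8 lies to the left at -0.62.

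Promoter sequence was examined because several laminin and integrin genes rose together. RefSeq promoter windows on GRCh38.p14, running from 250 bases before to 50 bases after an annotated start, were matched by symbol for 26 of the 38 genes, with 33 windows. Of the 15 genes called, 12 were matched. The windows were searched for the AP-1 motif TGANTCA, which is its own reverse complement, and for the TEAD motif GGAATG and its reverse complement CATTCC. The AP-1 motif was in 9.09% of the windows of these genes and 7.71% of all 35116 windows, and the TEAD motif in 12.1% and 14%, so the shares in these genes and in promoters at large were close. The 3 genes with the AP-1 motif were LAMA3, LAMB3 and ITGA5, which are all among the 14 called higher. Since 12 of the 26 matched genes were called, 3 genes are too few to link the calls to that motif. LAMA3 held it in both of its forms here, starting 125 and 69 bases before the start, and 0.515% of all windows hold it more than once. LAMB3 held it 67 bases before the last of its starts listed there, and ITGA5 held it 6 bases before its start along with a TEAD motif 82 bases before. ITGB1 held the TEAD motif 182 bases before its start listed first; ITGA10 and LAMA2 held it too. A match of letters does not show that a factor binds there. The windows of LAMA3, LAMB3, ITGA5 and ITGB1 are shown 5′ to 3′ on the strand of the gene, with motif letters in capitals. They lie at chr18:23872770-23873069, plus strand (LAMA3), chr1:209651325-209651624, minus strand (LAMB3, its last start listed), chr12:54419217-54419516, minus strand (ITGA5) and chr10:32958181-32958480, minus strand (ITGB1, its start listed first). Those of LAMA3, LAMB3 and ITGB1 lie inside the annotated gene, downstream of its outermost start.
LAMA3: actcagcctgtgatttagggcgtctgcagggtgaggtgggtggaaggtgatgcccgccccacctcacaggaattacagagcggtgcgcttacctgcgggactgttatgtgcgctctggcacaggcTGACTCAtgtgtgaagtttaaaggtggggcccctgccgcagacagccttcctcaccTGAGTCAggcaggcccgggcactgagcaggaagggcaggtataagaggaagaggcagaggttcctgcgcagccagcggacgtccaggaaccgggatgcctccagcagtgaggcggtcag
LAMB3: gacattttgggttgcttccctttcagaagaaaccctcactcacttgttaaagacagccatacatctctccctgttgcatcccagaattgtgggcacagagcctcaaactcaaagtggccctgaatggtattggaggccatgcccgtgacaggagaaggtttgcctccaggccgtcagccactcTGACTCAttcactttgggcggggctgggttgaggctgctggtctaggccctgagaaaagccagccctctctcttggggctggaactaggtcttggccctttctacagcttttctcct
ITGA5: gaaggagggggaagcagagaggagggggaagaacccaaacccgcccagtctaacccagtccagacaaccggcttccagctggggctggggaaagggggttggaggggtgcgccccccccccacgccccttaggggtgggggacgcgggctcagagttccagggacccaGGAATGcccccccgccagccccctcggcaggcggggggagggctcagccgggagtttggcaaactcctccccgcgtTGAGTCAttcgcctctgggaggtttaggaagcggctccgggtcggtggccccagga
ITGB1: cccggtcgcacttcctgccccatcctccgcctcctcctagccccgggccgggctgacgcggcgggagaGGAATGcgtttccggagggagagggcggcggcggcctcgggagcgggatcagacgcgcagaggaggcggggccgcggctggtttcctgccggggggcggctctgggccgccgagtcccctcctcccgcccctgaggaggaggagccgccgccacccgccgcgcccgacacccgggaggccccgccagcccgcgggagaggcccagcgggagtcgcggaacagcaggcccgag

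LAMA3 and LAMB3, chains of laminin-332, were called higher in knockout tumours. LAMA3 (ENSG00000053747, chromosome 18, 23689443 to 23956222, plus strand) was at 259.9, 420.0, 220.3 and 358 CPM in parental replicates 1 to 4 and at 1109.9, 509, 854 and 529 CPM in knockout replicates 1 to 4. Every knockout tumour lay above every parental tumour, and knockout replicates 1 and 3 lay furthest above. EdgeR gave LAMA3 a log2 fold change of 1.25 with an SE of 0.267 (adjusted p = 0.00494), and the call held whichever tumour was left out.

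LAMB3 (ENSG00000196878, chromosome 1, 209614870 to 209652466, minus strand) was at 1371, 1844, 1404 and 1350.1 CPM in parental and 2543, 2129, 2247 and 1590.0 CPM in knockout tumours. The groups overlapped, because parental replicate 2 exceeded knockout replicate 4. EdgeR gave LAMB3 a log2 fold change of 0.51 with an SE of 0.149 (adjusted p = 0.0253). That call rested on the full set of tumours. With 1 tumour left out the adjusted p passed 0.05 only without parental replicate 2 (0.00677) or without knockout replicate 4 (0.00596), and reached 0.0796 without knockout replicate 1.

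The other alpha chains differed in level. LAMA5, the alpha chain of laminin-511 and laminin-521 in adult epithelia (ENSG00000130702, chromosome 20, 62307955 to 62367312, minus strand), was at 776, 948, 767 and 596 CPM in parental and 1169, 999, 1035 and 963 CPM in knockout tumours. The groups did not overlap, though parental replicate 2 came within a few percent of knockout replicate 4. EdgeR gave LAMA5 a log2 fold change of 0.43 with an SE of 0.130 (adjusted p = 0.0294), with calls without parental replicate 2, parental replicate 4 or knockout replicate 4 and none without each of the other 5 tumours (highest adjusted p 0.0882, without knockout replicate 1). LAMA4, a chain of vessel-wall laminins (ENSG00000112769, chromosome 6, 112108760 to 112254939, minus strand), was low, at 2.07, 3.12, 2.14 and 1.36 CPM in parental and 6.12, 6.63, 8.26 and 7.14 CPM in knockout tumours. It had the largest fold change of the 30 genes tested, 1.70 on the log2 scale (SE 0.230, adjusted p = 2.66e-04), and was called whichever tumour was left out. Beside it, 7 endothelial markers, led by PECAM1 and TEK, summed to 5.90 to 15.2 CPM in parental and 8.92 to 15.1 CPM in knockout tumours (two-sided exact permutation p = 0.657, 0.657 after adjustment over 8 marker lists). That sum was mostly PECAM1, at 7.94 CPM on average in parental and 9.77 CPM in knockout tumours. CDH5, KDR, TEK, TIE1, CLDN5 and EMCN were each under 1 CPM on average. The 9 fibroblast and pericyte markers, led by COL1A1 and COL3A1, summed to 183 to 611 CPM in parental and 347 to 608 CPM in knockout tumours (two-sided exact permutation p = 0.400, adjusted 0.533). That sum was mostly COL1A1, whose mean was 353 of 375 CPM in parental and 447 of 482 CPM in knockout tumours. PDGFRA, PDGFRB and DCN were under 1 CPM on average. LUM was the one marker of that list called, from 0.374 ± 0.236 to 12.4 ± 2.50 CPM (log2 fold change 5.00, edgeR adjusted p = 1.98e-06). The part of the cells that these lists mark in the LAMA4 level was not tested. LAMA2, the chain of muscle laminin, was at 1.03 to 1.32 CPM in parental and 0.607 to 1.12 CPM in knockout tumours and did not pass the test (log2 fold change -0.56, adjusted p = 0.146).

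LAMB2, LAMC1 and LAMB1 had smaller fold changes. LAMB2 (ENSG00000172037, chromosome 3, 49121114 to 49133118, minus strand) was at 341, 383, 374 and 318 CPM in parental and 463, 402, 455 and 416 CPM in knockout tumours. The groups were apart by a narrow margin, with an edgeR log2 fold change of 0.29 (its SE was 0.0903 and adjusted p = 0.0324). Its call was lost without parental replicate 1 (0.0945), parental replicate 4 (0.0718), knockout replicate 1 (0.0958) or knockout replicate 3 (0.0921), and with no filter on low counts (0.0899). LAMC1, the gamma chain of most laminins, had a log2 fold change of 0.33 that missed the threshold (adjusted p = 0.0670), but passed it without parental replicate 2 (0.0347) or knockout replicate 4 (0.0396), and on all 8 tumours with upper-quartile scaling (0.0372). LAMB1 was at 122 to 151 CPM in parental and 125 to 129 CPM in knockout tumours, inside the parental range (log2 fold change -0.10, adjusted p = 0.460). LAMA1, LAMB4 and LAMC3 had 11, 21 and 1 counts over the 4 parental libraries and 7, 13 and 4 over the 4 knockout libraries, under the filter.

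**Figure D2:**
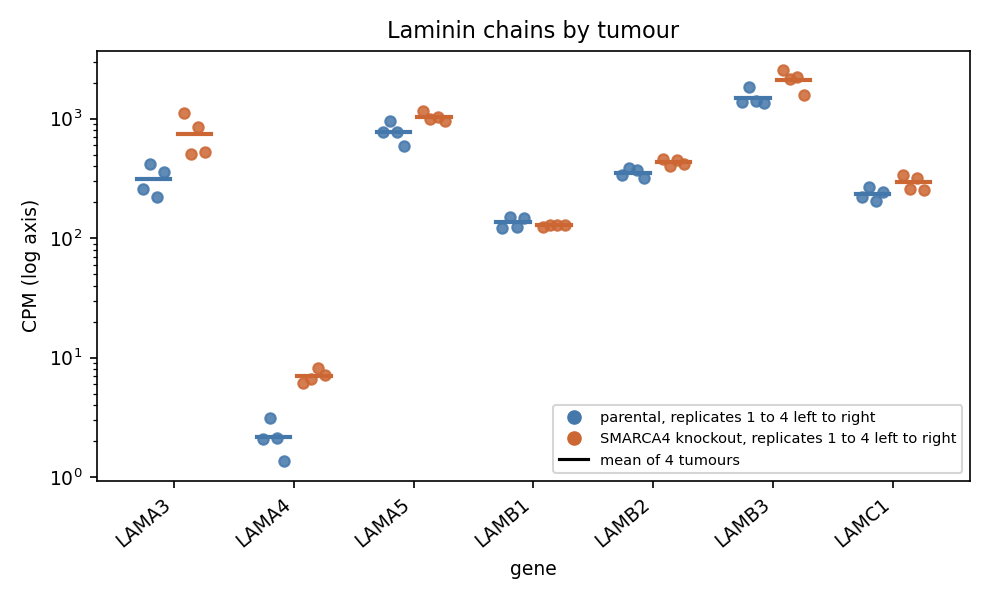
CPM of 7 laminin chains in each tumour on a log axis, with parental tumours in blue, knockout tumours in orange, replicates 1 to 4 from left to right and a line at the mean of 4 tumours. LAMA3, LAMA4, LAMA5 and LAMB2 do not overlap between the groups, LAMA5 and LAMB2 by a narrow margin, while for LAMB3 knockout replicate 4 falls among the parental tumours.

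Levels can be set against each other only per length, so CPM was divided by the length of each gene's merged exons in kilobases. LAMB3 led the laminins at 318 ± 50.3 CPM per kb in parental and 454 ± 84.9 in knockout tumours (± SD over 4 tumours). LAMA3 was far lower by this measure, at 21.4 ± 6.20 and 51.1 ± 19.6 CPM per kb, and stood behind LAMA5 at 54.0 ± 10.1 and 72.9 ± 6.27. Counts per gene do not separate the long and short LAMA3 transcripts, and merged exons lower the per-length level of a gene whose short transcript dominates. LAMA3 made up 28.3% ± 6.62 of laminin alpha transcripts per length in parental and 39.9% ± 7.29 in knockout tumours (± SD over 4 tumours), with overlapping ranges. LAMB1 made up 4.38% ± 0.546 of beta chains in parental and 3.02% ± 0.570 in knockout tumours, without overlap.

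ITGB1 and ITGB4 were the most abundant integrin beta chains per length in both genotypes, and both were called higher. ITGB1, the partner of most alpha chains (ENSG00000150093, chromosome 10, 32900319 to 33005792, minus strand), was at 942, 1019, 757 and 911 CPM in parental and 1778, 1571, 1773 and 1297 CPM in knockout tumours. Every knockout tumour was above every parental tumour. EdgeR gave ITGB1 a log2 fold change of 0.82 with an SE of 0.124 (adjusted p = 5.56e-04) and ran from 0.74 to 0.91 with 1 tumour left out. ITGB4, the hemidesmosome chain (ENSG00000132470, chromosome 17, 75721328 to 75757818, plus strand), was at 970.3, 1043, 861 and 771 CPM in parental and 1724, 1193, 1468 and 1069.6 CPM in knockout tumours. The groups did not overlap, and knockout replicate 4 lay closest to the parental tumours. EdgeR gave ITGB4 a log2 fold change of 0.58 with an SE of 0.151 (adjusted p = 0.0144), with a call in each fit that left out 1 tumour.

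Their alpha partner ITGA6 was called higher, and ITGA3 and ITGA2, partners of ITGB1, were not. Other alpha partners of ITGB1, some of them called higher, are given further below. ITGA6, the laminin-binding partner of ITGB4 and ITGB1 (ENSG00000091409, chromosome 2, 172427354 to 172506282, plus strand), was at 110.4, 115, 88.0 and 117 CPM in parental and 157, 133, 152 and 122 CPM in knockout tumours, with no overlap. By edgeR, the ITGA6 change of 0.39 on the log2 scale (SE 0.114, adjusted p = 0.0252) lost its call without parental replicate 1 (0.0536), parental replicate 3 (0.0586), knockout replicate 1 (0.0799) or knockout replicate 3 (0.0751), and without parental replicates 2 and 3 together (0.0839). ITGA3, the most abundant alpha chain per length and another laminin receptor, was at 419.6, 478, 399 and 377 CPM in parental and 542, 470.0, 546 and 478 CPM in knockout tumours, where parental replicate 2 overlapped the knockout group. The ITGA3 log2 fold change of 0.28 missed the threshold (adjusted p = 0.0520), and passed it without parental replicate 2 (0.0171). DESeq2, limma-voom, upper-quartile scaling and the stricter filter also called ITGA3, so its side of the threshold depended on the analysis. ITGA2, a collagen receptor, was at 214, 277, 159 and 195 CPM in parental and 419.6, 320.4, 308 and 152 CPM in knockout tumours. The lowest of the 8 values was that of knockout replicate 4 and the 3 highest were those of the other knockout tumours. ITGA2 had a log2 fold change of 0.51 (adjusted p = 0.177), and 0.73 with a call (adjusted p = 0.0152) without that tumour.

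Both RGD-binding alpha chains expressed at more than a few CPM were called higher. ITGA5, the fibronectin receptor chain (ENSG00000161638, chromosome 12, 54395261 to 54419460, minus strand), was at 59.0, 116, 52.3 and 59.7 CPM in parental and 195, 161, 142 and 75.9 CPM in knockout tumours. Parental replicate 2 was far above the other parental tumours and knockout replicate 4 was well below the other knockout tumours, so these 2 tumours crossed. EdgeR gave ITGA5 a log2 fold change of 1.00 with an SE of 0.296 (adjusted p = 0.0272). The ITGA5 call held without parental replicate 2 (0.00248) or knockout replicate 4 (0.00661) and was lost without each of the other 6, up to an adjusted p of 0.0831 without knockout replicate 1. ITGAV (ENSG00000138448, chromosome 2, 186590065 to 186680901, plus strand) was at 112, 103, 95.1 and 156 CPM in parental and 188, 176, 211 and 145 CPM in knockout tumours. Parental replicate 4 lay above knockout replicate 4 and the other 3 parental tumours below all knockout tumours. EdgeR gave ITGAV a log2 fold change of 0.63 with an SE of 0.159 (adjusted p = 0.0130), with a call in each fit that left out 1 tumour and 0.42 (adjusted p = 0.0874, no call) without parental replicates 2 and 3.

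Apart from ITGB1, no beta partner of ITGAV was called higher. ITGB8, which with ITGAV binds latent TGF-beta (ENSG00000105855, chromosome 7, 20330702 to 20415754, plus strand), was at 29.9, 37.0, 39.8 and 38.9 CPM in parental and 23.1, 29.8, 24.9 and 17.1 CPM in knockout tumours. The groups did not overlap, but parental replicate 1 and knockout replicate 2 were almost equal. ITGB8 fell by 0.62 on the log2 scale (SE 0.157, edgeR adjusted p = 0.0129) and was the only one of the 30 genes called lower. ITGB6, an epithelial chain with a similar ligand, was at 78.6 to 129 CPM in parental and 74.7 to 96.0 CPM in knockout tumours (log2 fold change -0.17, adjusted p = 0.458). Of the exon bases of ITGB6, 20.6% are shared with another annotated gene on the same strand, so its level is uncertain. ITGB5, a vitronectin receptor chain, was at 52.3 to 65.3 and 51.7 to 76.6 CPM (log2 fold change 0.13, adjusted p = 0.495). ITGB3, the remaining ITGAV partner, was under the filter with 46 counts over the parental and 13 over the knockout libraries. Without a filter its fitted log2 fold change was -1.77 (edgeR adjusted p = 0.0221), but 51.6% of its exon bases are shared with another annotated gene on the same strand, which makes its counts uncertain.

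**Figure D3:**
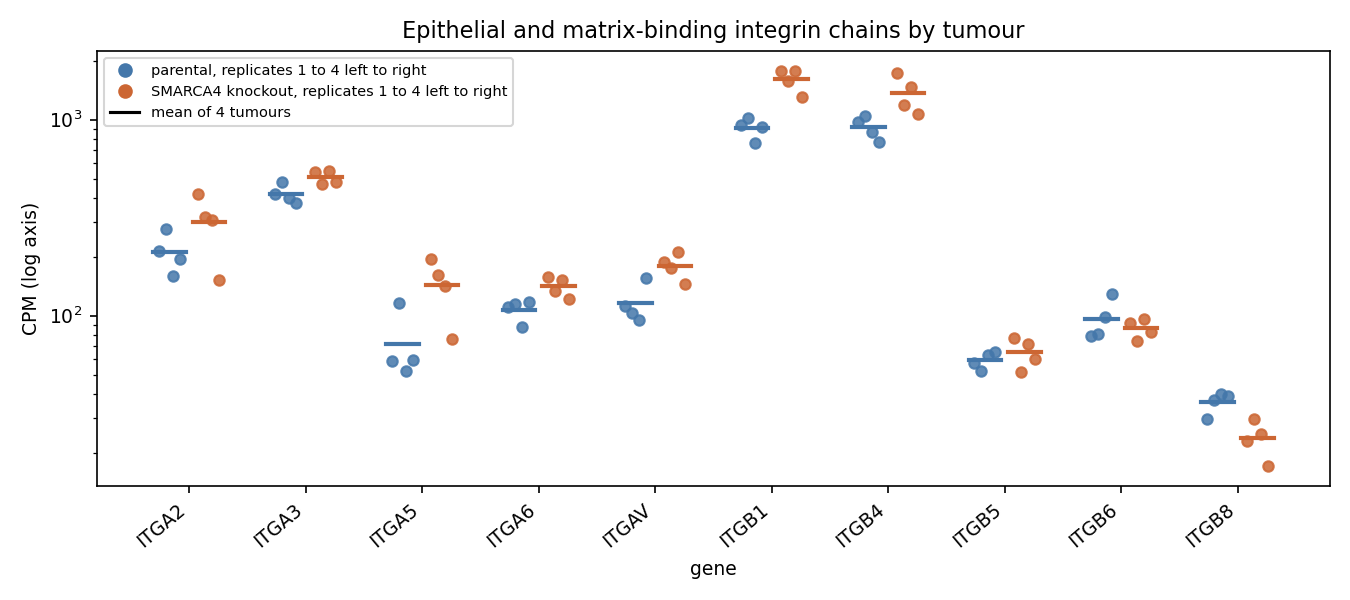
CPM of 10 integrin chains in each tumour on a log axis, with parental tumours in blue, knockout tumours in orange, replicates 1 to 4 from left to right and a line at the mean of 4 tumours. ITGB1, ITGB4 and ITGA6 are higher and ITGB8 lower without overlap between the groups, and knockout replicate 4 is the lowest knockout tumour for ITGA2, ITGA5, ITGA6, ITGAV, ITGB1, ITGB4 and ITGB8.

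The knockout tumours also differed among themselves. Of the 14 genes called higher, knockout replicate 1 had the highest knockout value in 9 and knockout replicate 4 the lowest in 9. Knockout replicate 4 stood apart from the other knockout tumours in skeletal muscle markers, which summed to 17.8 CPM against 2.73 to 5.47 CPM. The basal keratin KRT5, named after its values were seen, was at 15.6 CPM there and at most 0.0934 CPM in the other knockout tumours. That library also had the highest share of reads that the counting placed in no annotated feature, 10.4% against 6.08% to 8.76% in the other 7. Its epithelial marker sum was the highest of the knockout group, 6237 CPM, and its leukocyte marker sum the lowest of the 8 tumours by a small margin, 29.6 CPM. The part of these in the integrin and laminin levels was not tested.

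Partner chains were then compared as ratios per length within each tumour, for the 34 known partner combinations in which both genes passed the filter (17 integrin pairs of 24 and 17 laminin combinations). In 16 of them the two-sided exact permutation test between the groups gave p = 0.0286, the smallest it can give, which was 0.0607 after Benjamini-Hochberg adjustment. With 34 ratios, at least 20 at the smallest p would have been needed to pass 0.05, so none did. Within laminin-332, the ratio of LAMA3 to LAMB3 was 0.0657 in parental and 0.108 in knockout tumours (geometric means, exact permutation p = 0.0571). ITGAV to ITGB8 went from 5.84 to 14.2 and ITGAV to ITGB6 from 0.689 to 1.19, both without overlap between the groups (exact permutation p = 0.0286). ITGA3 to ITGB1 went from 0.283 to 0.196 and ITGA6 to ITGB1 from 0.109 to 0.0811, again at the smallest p. ITGA6 to ITGB4 was 0.122 and 0.108 (exact permutation p = 0.400). Within the beta chains, ITGB1 made up 47.1% ± 2.52 of the class per length in parental and 53.4% ± 2.30 in knockout tumours, while ITGB6 made up 6.55% ± 1.93 and 3.71% ± 0.461 (SD, n = 4 each), neither with overlap. The ITGB6 level itself did not pass edgeR's test, and its exon overlap given above limits its share and its ratio.

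**Figure D4:**
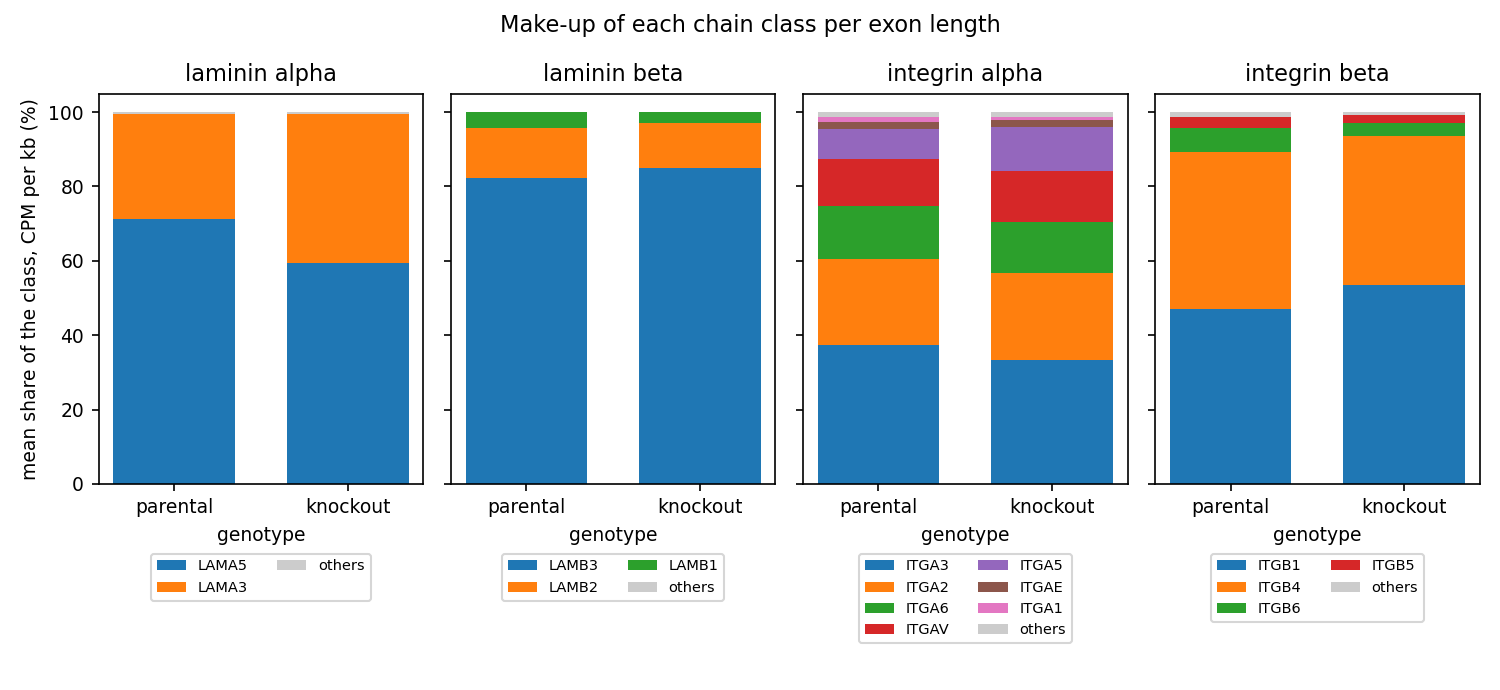
Mean share of each gene in its chain class, from CPM per kb of merged exons, for the 4 parental and the 4 knockout tumours; genes under 1% in both groups are pooled as others. ITGB1 and ITGB4 make up most of the integrin beta class in both genotypes, and LAMA3 takes a larger mean share of the laminin alpha class in knockout tumours.

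Integrins of low abundance gave further calls. ITGA10, a collagen receptor chain best known from cartilage, was at 1.55, 1.27, 1.25 and 1.06 CPM in parental and 2.76, 3.22, 2.24 and 3.55 CPM in knockout tumours (edgeR log2 fold change 1.20, SE 0.221, adjusted p = 0.00207). No knockout value fell among the parental values, and the call held whichever tumour was left out. ITGA2B, the platelet fibrinogen receptor chain, was at 0.414, 0.342, 0.223 and 0.213 CPM in parental and 0.794, 0.780, 0.653 and 1.40 CPM in knockout tumours, from 25 and 77 counts in all (log2 fold change 1.61, SE 0.361, adjusted p = 0.00676), also without overlap. Of 5 platelet markers, GP9 had no count in any library, PF4 had 1, GP1BA 5 and GP6 11 counts over all 8 libraries, and only PPBP was above the filter, going from 1.18 ± 0.608 to 18.6 ± 6.18 CPM (log2 fold change 3.98, adjusted p = 1.95e-05). Their part in the ITGA2B level was not tested. The list, led by PPBP and GP6, summed to 0.425 to 1.70 CPM in parental and 12.6 to 24.4 CPM in knockout tumours (two-sided exact permutation p = 0.0286, 0.114 after adjustment over 8 marker lists). The other collagen receptor chains, ITGA1 and ITGA11, did not pass the test (log2 fold changes -0.22 and -0.28, adjusted p = 0.607 and 0.542). ITGA1 was at 20.0, 33.4, 39.6 and 13.9 CPM in parental tumours, highest in the 2 with the highest leukocyte marker sums, and its log2 fold change was 0.43 without them (adjusted p = 0.162). The part of leukocyte RNA in it was not tested. ITGA7, a laminin receptor of muscle (log2 fold change 0.19, adjusted p = 0.628), and ITGAE, which pairs with ITGB7 to bind E-cadherin (0.28, 0.130), did not pass either. ITGA4, ITGA8 and ITGA9 had 86, 0 and 12 counts over the parental libraries and 36, 2 and 9 over the knockout libraries, under the filter.

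Among parental tumours, leukocyte integrins were highest in replicates 2 and 3, the tumours with the highest leukocyte marker sums. ITGB2, the common beta chain of leukocyte integrins, was at 3.004, 14.3, 12.7 and 2.34 CPM in parental and 8.97, 7.995, 9.33 and 6.77 CPM in knockout tumours. Parental replicates 2 and 3 were the highest of the 8 and parental replicates 1 and 4 the lowest. ITGAL, its partner on lymphocytes, was at 0.363, 5.37, 3.35 and 0.0850 CPM in parental and 2.43, 1.90, 1.45 and 1.26 CPM in knockout tumours, again with parental replicates 2 and 3 highest and 1 and 4 lowest. ITGAM, its partner on myeloid cells, was at 0.104, 1.81, 2.28 and 0.213 and 0.841, 1.27, 1.31 and 0.887 CPM. Over all tumours, none of ITGB2, ITGAL and ITGAM passed the test (edgeR log2 fold changes 0.03, -0.38 and -0.04; adjusted p = 0.970, 0.764 and 0.976). Parental replicates 2 and 3 held the highest values of ITGB2, ITGAL and ITGAM. Without them the log2 fold changes were 1.63, 3.01 and 2.67, each with a call. Leaving out the highest parental tumours raises the fold change by itself, so these calls give no support for a rise. On all 8 tumours the sign for ITGAL and ITGAM also turned with the method, to 0.92 and 0.83 by limma-voom (adjusted p = 0.511 and 0.451), so no direction is given for them.

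ITGAX, a complement receptor chain of myeloid cells, was called higher over all 8 tumours. It was at 1.14, 1.95, 2.14 and 0.595 CPM in parental and 3.46, 6.73, 2.94 and 2.52 CPM in knockout tumours, where each knockout value exceeded each parental value. EdgeR gave ITGAX a log2 fold change of 1.42 with an SE of 0.408 (adjusted p = 0.0237), with the call lost without parental replicate 1 (0.0665) or knockout replicate 2 (0.0826). The 12 leukocyte markers went the other way on average, from a mean of 66.4 CPM in parental to 43.3 CPM in knockout tumours (two-sided exact permutation p = 0.371, 0.533 after adjustment over 8 lists), with LCP1 and LAPTM5 the most abundant and none of the 10 tested by edgeR called. ITGB7, a lymphocyte chain, was at 1.24, 4.44, 2.77 and 0.808 CPM in parental and 5.09, 5.70, 4.25 and 4.90 CPM in knockout tumours, with parental replicate 2 above knockout replicate 3. At 1.11, the ITGB7 log2 fold change missed the threshold (adjusted p = 0.0659) and passed it without parental replicate 2 (1.63, adjusted p = 0.00488). On all 8 tumours ITGB7 was called by DESeq2 (adjusted p = 0.0278), by limma-voom (0.0214) and by edgeR with no filter on low counts (0.0136). The exons of ITGB7 share 42.1% of their bases with ZNF740 on the opposite strand, and the strandedness of the counting is not given, so its counts are uncertain. ITGAD, another partner of ITGB2, had 9 counts over the parental and 54 over the knockout libraries and was under the filter. It was at 0 to 0.207 CPM in parental and 0.327 to 1.46 CPM in knockout tumours, without overlap and highest in knockout replicate 2. With no filter its fitted log2 fold change was 2.52 (edgeR adjusted p = 0.00558).

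**Figure D5:**
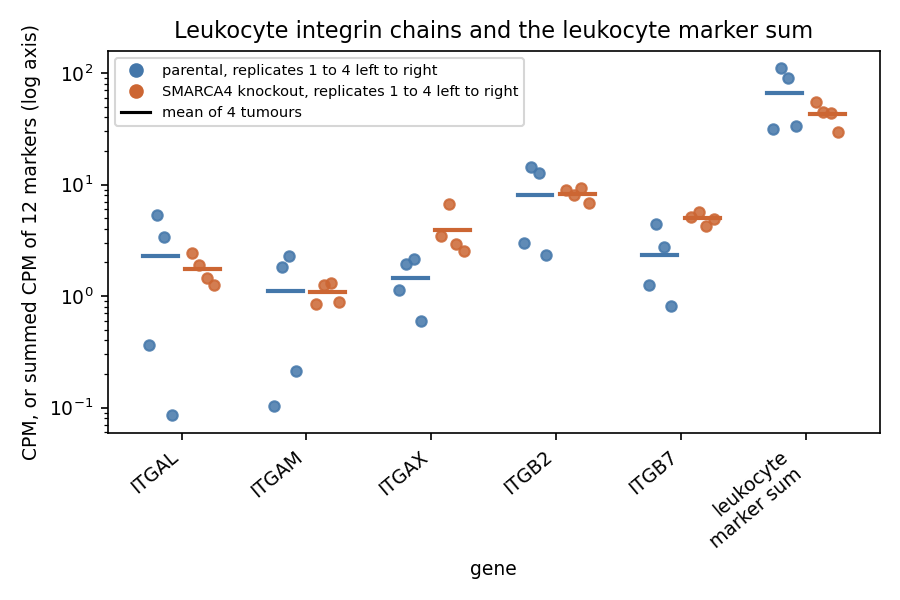
CPM of 5 leukocyte integrin chains and the summed CPM of 12 leukocyte markers in each tumour on a log axis, with parental tumours in blue, knockout tumours in orange, replicates 1 to 4 from left to right and a line at the mean of 4 tumours. Parental replicates 2 and 3 lie above parental replicates 1 and 4 for all 6 quantities, and ITGAX is the chain with every knockout tumour above every parental tumour.

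Genes that act with these chains were compared by list with edgeR's test (± gives the SD, n = 4 tumours a group), and their counts are set beside the 27.0% called over all genes tested. A list of hemidesmosome components and of genes linked to them, without ITGA6 and ITGB4, gave 3 genes higher and 1 lower in 6 tested. COL17A1, the hemidesmosome collagen, went from 37.1 ± 5.56 to 67.3 ± 5.84 CPM (log2 fold change 0.86, adjusted p = 2.31e-04), and COL7A1, the anchoring fibril collagen, from 116 ± 40.6 to 184 ± 36.3 CPM (log2 fold change 0.67, adjusted p = 0.0425), while DST, which ties the plaque to keratin, went from 128 ± 38.8 to 87.0 ± 7.78 CPM (log2 fold change -0.56, adjusted p = 0.0372). The basal keratin KRT14 went from 0.453 ± 0.255 to 14.8 ± 15.1 CPM (log2 fold change 5.01, adjusted p = 4.33e-04), with 37.3 CPM in knockout replicate 4. The hemidesmosome components PLEC and CD151, named after their values were seen, were not called (log2 fold changes 0.05 and -0.18, edgeR adjusted p = 0.756 and 0.176). The count of 4 called genes in this list fell to 2 without each of parental replicates 2 and 4 and knockout replicates 1, 2 and 4.

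Basement membrane partners of laminin gave 5 genes higher and 6 lower in 17 tested (64.7% called, against 27.0% over all genes tested), with a median log2 fold change of 0.01. FREM2, a membrane protein of the epithelial basement membrane, went from 4.10 ± 1.63 to 0.118 ± 0.0461 CPM (log2 fold change -5.05, adjusted p = 8.49e-06). PXDN, the peroxidase that crosslinks collagen IV, went from 146 ± 33.7 to 34.1 ± 11.6 CPM (log2 fold change -2.10, adjusted p = 5.29e-05), and NTN4, a laminin-related protein, from 21.6 ± 0.277 to 11.6 ± 1.24 CPM (log2 fold change -0.89, adjusted p = 9.27e-05). Among those that rose, the collagen IV chain gene COL4A3 went from 11.7 ± 2.87 to 30.4 ± 4.99 CPM (log2 fold change 1.38, adjusted p = 1.88e-04). COL4A1, COL4A2 and COL4A4 were called higher too. The collagen IV chain genes COL4A5 and COL4A6 were not called (log2 fold changes 0.01 and -0.30, edgeR adjusted p = 0.965 and 0.288). All of these but COL4A3 were named after their values were seen.

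Genes that switch integrins on or off gave 4 genes higher and 1 lower in 16 tested (31.25% called), close to the 27.0% over all genes tested. The kindlins FERMT2 and FERMT1, which activate integrins at the beta tail, went from 21.5 ± 2.02 to 47.4 ± 7.34 CPM (log2 fold change 1.14, adjusted p = 5.26e-05) and from 203 ± 25.2 to 344 ± 65.4 CPM (log2 fold change 0.76, adjusted p = 0.00199). TLN2, a talin with the same role, went from 9.12 ± 2.43 to 17.9 ± 1.53 CPM (log2 fold change 0.98, adjusted p = 0.00154), and the adaptor DOK1, which competes with talin for the beta tail, from 4.16 ± 0.352 to 1.65 ± 0.310 CPM (log2 fold change -1.33, adjusted p = 3.74e-04). Focal adhesion adaptors and kinases gave 4 higher and 4 lower in 36 tested (22.2% called). PARVA, part of the complex of integrin-linked kinase, went from 31.6 ± 1.02 to 17.2 ± 1.52 CPM (log2 fold change -0.88, adjusted p = 4.40e-05), and PTK2, the focal adhesion kinase gene, from 97.2 ± 8.19 to 72.0 ± 5.60 CPM (log2 fold change -0.43, adjusted p = 0.00428). TNS4, a tensin, went from 559.7 ± 73.5 to 891 ± 147 CPM (log2 fold change 0.67, adjusted p = 0.00330) and the actin regulator VASP from 195 ± 9.22 to 253 ± 9.41 CPM (log2 fold change 0.37, adjusted p = 0.00366). That list gave 5 calls without knockout replicate 1 or knockout replicate 3.

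Recycling and membrane partner genes were called lower more often than higher. Among all genes tested, 27.0% were called, 13.0% higher and 14.1% lower. Integrin recycling genes gave 5 lower and none higher in 12 tested, by edgeR's test. RAB25, an epithelial recycling GTPase, went from 134 ± 5.02 to 82.5 ± 8.62 CPM (log2 fold change -0.70, adjusted p = 1.65e-04), RAB11FIP1, a RAB11 effector, from 184 ± 34.2 to 102 ± 11.9 CPM (log2 fold change -0.85, adjusted p = 6.93e-04), RAB11A from 275 ± 13.7 to 218 ± 5.32 CPM (log2 fold change -0.33, adjusted p = 0.00637), and the small GTPase ARF6 from 185 ± 13.0 to 145 ± 7.81 CPM (log2 fold change -0.35, adjusted p = 0.00841). Lateral membrane partners of integrins gave 1 higher and 5 lower in 10 tested. CD47, the integrin-associated protein, went from 119 ± 12.6 to 46.5 ± 3.37 CPM (log2 fold change -1.36, adjusted p = 3.33e-06). The tetraspanins CD82 and CD9 went from 28.4 ± 7.46 to 9.95 ± 1.12 CPM (log2 fold change -1.51, adjusted p = 8.40e-05) and from 134 ± 16.8 to 86.7 ± 5.87 CPM (log2 fold change -0.63, adjusted p = 8.14e-04), and the tetraspanin TSPAN4 from 16.5 ± 3.68 to 33.2 ± 5.64 CPM (log2 fold change 1.01, adjusted p = 0.00112).

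Other ligands and receptors were mixed. Integrin ligands other than laminins gave 8 higher and 5 lower in 28 tested (46.4% called). The fibrinogen alpha chain gene FGA went from 76.7 ± 13.6 to 409 ± 82.7 CPM (log2 fold change 2.41, adjusted p = 2.98e-06) and osteopontin, SPP1, an RGD ligand, from 730.3 ± 153 to 1441 ± 117 CPM (log2 fold change 0.98, adjusted p = 3.86e-04). ADAM15, a membrane protease with an RGD site, went from 317 ± 26.7 to 135 ± 12.2 CPM (log2 fold change -1.23, adjusted p = 5.91e-06), and LRRC32, which holds latent TGF-beta at the cell surface, from 0.108 ± 0.0640 to 1.20 ± 0.540 CPM (log2 fold change 3.44, adjusted p = 3.21e-04). Laminin receptors other than integrins, with the enzymes that glycosylate dystroglycan, gave 3 higher and 2 lower in 17 tested (29.4% called), close to the 27.0% over all genes tested. The count was 3 in all without knockout replicate 3 or without parental replicates 2 and 3. LARGE2, which extends the laminin-binding glycan of dystroglycan, went from 14.9 ± 1.51 to 7.32 ± 1.37 CPM (log2 fold change -1.03, adjusted p = 4.52e-04), and B4GAT1, which primes it, from 9.40 ± 0.126 to 13.8 ± 0.472 CPM (log2 fold change 0.55, adjusted p = 0.00174). Syndecans moved in both directions. SDC4 and SDC3 went from 328 ± 26.2 to 474 ± 87.3 CPM (log2 fold change 0.53, adjusted p = 0.0104) and from 18.9 ± 2.76 to 25.2 ± 2.75 CPM (log2 fold change 0.41, adjusted p = 0.0316), while SDC1, named after its values were seen, went from 383 ± 33.3 to 307 ± 30.0 CPM (log2 fold change -0.32, adjusted p = 0.0317).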

How the data were processed

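The authors deposited raw counts, 1 file per tumour, with 1 row for each gene symbol and no pooling. TopHat2 2.1.1, HTSeq 0.11.0 and the genome build hg38 are named per the submitters' processing notes, without their role. The annotation, the strandedness, the counting options and any removal of mouse reads are not given in the sources used here. Each file ends with 5 summary lines, left out of library sizes; 79.1% to 85.2% of all reads were assigned to a gene. Chi-square per degree of freedom was at least 8.21 between any 2 libraries, so all 8 were kept as separate samples.

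Counts were fitted with edgeR 4.0.16 in R 4.3.3 (filterByExpr with a minimum count of 10 and total of 15, TMM scaling, quasi-likelihood F-test of knockout against parental, no covariate), with Benjamini-Hochberg adjustment over 16219 genes and a threshold of 0.05. The SE is the log2 fold change divided by the square root of F. The fit was tested on simulated counts. Single values were compared with a two-sided exact permutation test, whose smallest p is 0.0286. Lengths and positions come from GENCODE 29 on GRCh38, matched by symbol for all 38 genes. Alternatives were DESeq2 1.42.0, limma-voom (limma 3.58.1), RLE and upper-quartile scaling, no filter, a filter of 1 CPM in 4 libraries, the replicate number as a block, and leaving out each tumour; leaving out parental replicates 2 and 3 together was added after the data were seen. The genes, the lists and the rule for naming genes (all integrins and laminins; in each list the up to 4 called genes with the smallest p; in marker lists the 2 most abundant) were chosen with earlier results of these data known. 1 gene of the set and 1 marker list are counted in totals but not reported here. In each list the integrins and laminins themselves were left out. Intervals of counting error are not given, and a count of 0 was taken to allow 3 counts.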

Additional observations from a re-analysis of the deposited data

Results flagged for a closer look

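For 78 sets of 4 values (30 integrin and laminin genes, SMARCA4 and 8 marker sums in each group), the highest or lowest tumour was compared with the other 3, and 3 sets held a tumour far from the others; chance alone marks about 5% of sets. ITGA5 was at 116 CPM in parental replicate 2, while the other parental tumours lay at 59.0, 52.3 and 59.7 CPM. LAMB3 was at 1844 CPM in the same tumour, with the other parental tumours at 1371, 1404 and 1350.1 CPM. Both values are on the side of the knockout tumours, and both genes kept their call without that tumour. The 7 endothelial markers summed to 15.1 CPM in knockout replicate 2, against 8.92 to 9.19 CPM in the other knockout tumours; most of it was PECAM1.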

How the results depend on the processing

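Depth and 4 tumours a group limit the genes under about 1 CPM. The 15 called genes kept their direction under every alternative run. They kept their call in 100 of 104 combinations of gene and alternative on all tumours and in 89 of 120 with 1 tumour left out; ITGA10, ITGA2B, ITGAV, ITGB1, ITGB4, ITGB8, LAMA3 and LAMA4 kept it in each of these where they were tested. Leaving out 1 tumour gave 7 to 17 genes higher and 1 lower, 5 to 10 called focal adhesion genes, 2 to 4 hemidesmosome genes and 3 to 4 laminin receptor genes. With no filter on low counts 15 genes were higher, with ITGAD and ITGB7 gained and LAMB2 lost, and 2 were lower, ITGB8 and ITGB3. Without parental replicates 2 and 3 none of the integrin and laminin genes was lower (0 by edgeR), and 3 laminin receptor genes were called. ITGAL and ITGAM, which were highest in these 2 tumours, turned from negative to 3.01 and 2.67 (log2). On all tumours limma-voom also turned them, to 0.92 and 0.83, without a call; the cause was not tested.

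Tumours of the same replicate number did not deviate together (r = -0.187 to 0.0863 across genes), and no parental tumour correlated best with its own number. With the replicate number as a block, 3871 genes were called, 12 integrins and laminins higher and 1 lower, and 2 hemidesmosome genes; ITGA6 and LAMB2 were among those that lost their call, ITGB7 gained one, and ITGAL and ITGAM turned to 0.28 and 0.40 (log2) without a call.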

Other observations

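The divergent transcript gene next to ITGB1 moved with it. ITGB1-DT, a non-coding RNA gene on the opposite strand, had 99 counts over the parental and 311 over the knockout libraries, at 1.14, 1.71, 0.849 and 0.978 CPM in parental and 4.39, 3.22, 4.11 and 2.94 CPM in knockout tumours. Every knockout tumour was above every parental tumour, with an edgeR log2 fold change of 1.65 (its SE was 0.255 and adjusted p = 6.40e-04) against 0.82 for ITGB1. It was named after its values were seen. The annotation gives the 2 genes 42 shared exon bases, and without strand their reads cannot be told apart there. ITGB2-AS1, antisense to ITGB2, went from 2.36 ± 0.892 to 4.40 ± 0.914 CPM (SD, n = 4 each, log2 fold change 0.89, edgeR adjusted p = 0.0263), while ITGB2 did not pass the test. The groups overlapped, with parental replicate 3 at 3.66 CPM and knockout replicate 4 at 3.50 CPM. ITGB2-AS1 shares 303 exon bases with ITGB2, where reads cannot be told apart without strand either.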
